A study of Mus musculus with 30 samples.

Results

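Transcription factor genes that mark or set regions of the foregut and its neighbours were followed across sorted cells of the mouse stomach. They are Pdx1, Barx1, Gata4, Gata5, Gata6, Cdx1, Cdx2, Hnf4a, Hhex and Foxq1, taken by name from the 2 deposited expression tables, and they are 10 of 25942 named genes. RNA-seq was done on 30 libraries of cells sorted from the antrum, the distal stomach that some labels call the pylorus, or from the corpus, the acid-secreting body. All mice carried 1 of 2 reporters, which the labels name Lgr5-DTR-GFP and Sox2-Tomato, and the genotype field of every group reads WT. From the Lgr5-DTR-GFP antrum, cells without and with Lgr5 were sorted. From the Lgr5-DTR-GFP corpus came Lgr5-negative cells, EpCAM-high Lgr5-positive cells and EpCAM-low Lgr5-positive cells, EpCAM being an epithelial surface protein. The Sox2-Tomato antrum was split into Sox2-negative, Sox2-low and Sox2-high cells, and the Sox2-Tomato corpus into Sox2-negative cells and a Sox2-positive group that another label of the same samples calls Sox2-low. Each of the 10 groups has 3 libraries, and no treatment is named. The sources used here give no age, sex or number of animals per sort. A gated population is a mixture of cell types, so fewer cells of a type and less RNA per cell cannot be told apart.

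The gut tube is divided along its length by transcription factors that are switched on in bands during development and are partly kept in the adult epithelium. Pdx1 marks the caudal foregut, from the antrum into the duodenum and pancreas, and is needed for antral gastrin cells. Cdx1 and Cdx2 are the caudal homeobox factors of the intestine, and Barx1 is a homeobox factor of the stomach mesenchyme that restrains Wnt signalling in the overlying epithelium. Gata4, Gata5 and Gata6 are zinc finger factors of the endoderm, Hnf4a is a nuclear receptor of gut, liver and pancreas epithelium, Hhex is a homeobox factor of anterior endoderm needed for liver and ventral pancreas, and Foxq1 is a forkhead factor linked to mucin production by stomach surface cells.

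Pdx1 lies on chromosome 5 at 147269959 to 147275848 on the plus strand of GRCm38 (GENCODE M21), and Cdx2 lies on the same chromosome at 147300805 to 147307270 on the minus strand. Hhex lies on chromosome 19 at 37434810 to 37440731 on the plus strand. These 3 are the members with the largest differences in favour of the antrum, and for that reason bases upstream of their starts are shown, namely the part of each searched window that precedes both the RefSeq and the GENCODE start. The sequences are from RefSeq (GRCm38.p6), 5′ to 3′ on the strand of the gene, and capitals mark the one motif match.
Pdx1, chr5:147269847-147269958, plus strand: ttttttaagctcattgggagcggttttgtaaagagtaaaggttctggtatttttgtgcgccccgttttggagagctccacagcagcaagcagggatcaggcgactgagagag
Cdx2, chr5:147307271-147307499, minus strand: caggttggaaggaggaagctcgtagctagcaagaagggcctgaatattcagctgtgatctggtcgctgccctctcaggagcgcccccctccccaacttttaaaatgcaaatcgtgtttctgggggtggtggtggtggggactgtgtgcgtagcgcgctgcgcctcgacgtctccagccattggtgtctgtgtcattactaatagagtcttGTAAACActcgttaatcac
Hhex, chr19:37434591-37434809, plus strand: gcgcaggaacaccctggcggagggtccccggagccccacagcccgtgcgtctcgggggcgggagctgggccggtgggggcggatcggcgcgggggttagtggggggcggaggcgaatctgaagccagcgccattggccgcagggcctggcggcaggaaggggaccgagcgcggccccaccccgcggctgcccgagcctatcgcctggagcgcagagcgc

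GATA, CDX, forkhead, homeobox and TATA motifs were searched on both strands in the 250 bases before each of 32851 RefSeq gene starts, which covered 6 of the 10 members. The GATA motif AGATAA was in 9.988% of all windows, the CDX motif TTTATG in 10.76%, the forkhead motif TGTTTAC in 3.166%, the homeobox core TAATTA in 4.84% and the TATA motif TATAAA in 12.37%. The Cdx2 window held the forkhead motif in reverse orientation, as GTAAACA, with its first base 40 bases before the RefSeq start, which lies downstream of the GENCODE start at which the printed bases stop. The windows of Pdx1, Hhex, Barx1 and Gata5 held none of these letters, and those of Hnf4a held AGATAA in one window and TAATTA in the other. The windows also differed in base composition, from 51.2% G and C in one Hnf4a window to 85.6% for Barx1, with 54.8% for Pdx1, 55.2% for Cdx2 and 76.0% for Hhex, against a median of 52.4% over all windows.

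The libraries held 31985198 to 62344916 reads in the EpCAM-low group and 18672634 to 34437305 in the other groups. In the EpCAM-low libraries 10 genes took 75.8 to 88.2% of the reads, against 6.47 to 46.7% elsewhere, so scaling to the total and scaling to the bulk of genes differ most there. Levels are given as rescaled counts, which are recovered reads of all 30 libraries scaled together with TMM factors, or, within 1 tissue and line, as the deposited normalized counts. Same-numbered libraries of a line and tissue were sorted on 1 day. None of the 12 sort dates is shared between lines or between antrum and corpus, so the tissues could be compared only across days. Sort day 1, a separate date in each line, stood apart in the antrum, with lower values for long transcripts in all 5 groups. The median difference between day 1 and the other days in the antrum was 0.58 to 1.18 (log2) for genes with transcripts under 1500 bases and −0.74 to −1.07 for those of 3500 to under 5000 bases, and in the corpus all medians lay between −0.20 and 0.25. The transcripts of the sorted genes separated some gates and not others. Lgr5 was at 2992 to 4998 in antral Lgr5-positive libraries against 65.1 to 371 in the negative ones. Sox2 was at 1206 to 3647 in Sox2-high against 34.9 to 501 in antral Sox2-negative libraries (limma adjusted p = 0.0538, and 0.0032 with the sort day as a block). Antral Sox2-low libraries, at 359 to 828, overlapped the Sox2-negative ones. In the corpus Sox2 was at 288 to 431 in Sox2-positive and 29.1 to 78.6 in Sox2-negative libraries. The antral marker gastrin (Gast) was at 184914 to 4857400 in the antrum and at 3.19 to 152 in the corpus, except for 4897 in replicate 2 of corpus Sox2-positive cells. The corpus marker Gif was at 72188 to 154291 in antral Lgr5-positive and 61749 to 123337 in corpus Lgr5-negative libraries, and Atp4a at 8672 to 55159 and 38860 to 54001. In antral Lgr5-negative libraries Gif was at 587 to 4218 and Atp4a at 217 to 1502. A part of corpus tissue in the antral sorts was not tested.

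Pdx1 was the member that separated the tissues. Its rescaled counts in the antrum were 1593, 1501 and 1760 in Lgr5-negative cells and 1196, 1472 and 1708 in Lgr5-positive cells (replicates 1, 2 and 3). They were 1319, 1612 and 1527 in Sox2-negative cells, 1456, 1726 and 1930 in Sox2-low cells and 1338, 1766 and 1827 in Sox2-high cells. All 5 antral groups therefore lay in one narrow band, and no neighbouring groups in the order of means were separated. In the corpus the values were 54.7, 30.2 and 30.4 in Lgr5-negative cells, 3.58, 9.91 and 26.0 in EpCAM-low cells and 13.8, 17.3 and 39.5 in EpCAM-high cells. They were 91.0, 47.8 and 106 in corpus Sox2-negative cells and 65.1, 25.8 and 61.1 in Sox2-positive cells. The lowest antral library was above the highest corpus library, and the antral group means averaged 38.2-fold the corpus ones. Pdx1 was the one member of the 9 tested whose libraries did not overlap between tissues, and 1.49% of the 17178 genes tested behaved so in either direction (1.01% with the antrum higher). On the log2(rescaled count + 1) scale the antrum was higher by 5.61 (SE 0.21, limma adjusted p = 2.9e-16). Plut, a noncoding gene annotated on the strand opposite to Pdx1 and overlapping it, ran at 322 to 1633 in the antrum and 0 to 39.7 in the corpus. Use of strand in counting is not stated, so reads of Pdx1 and Plut cannot be told apart where they overlap.

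**Figure D1:**
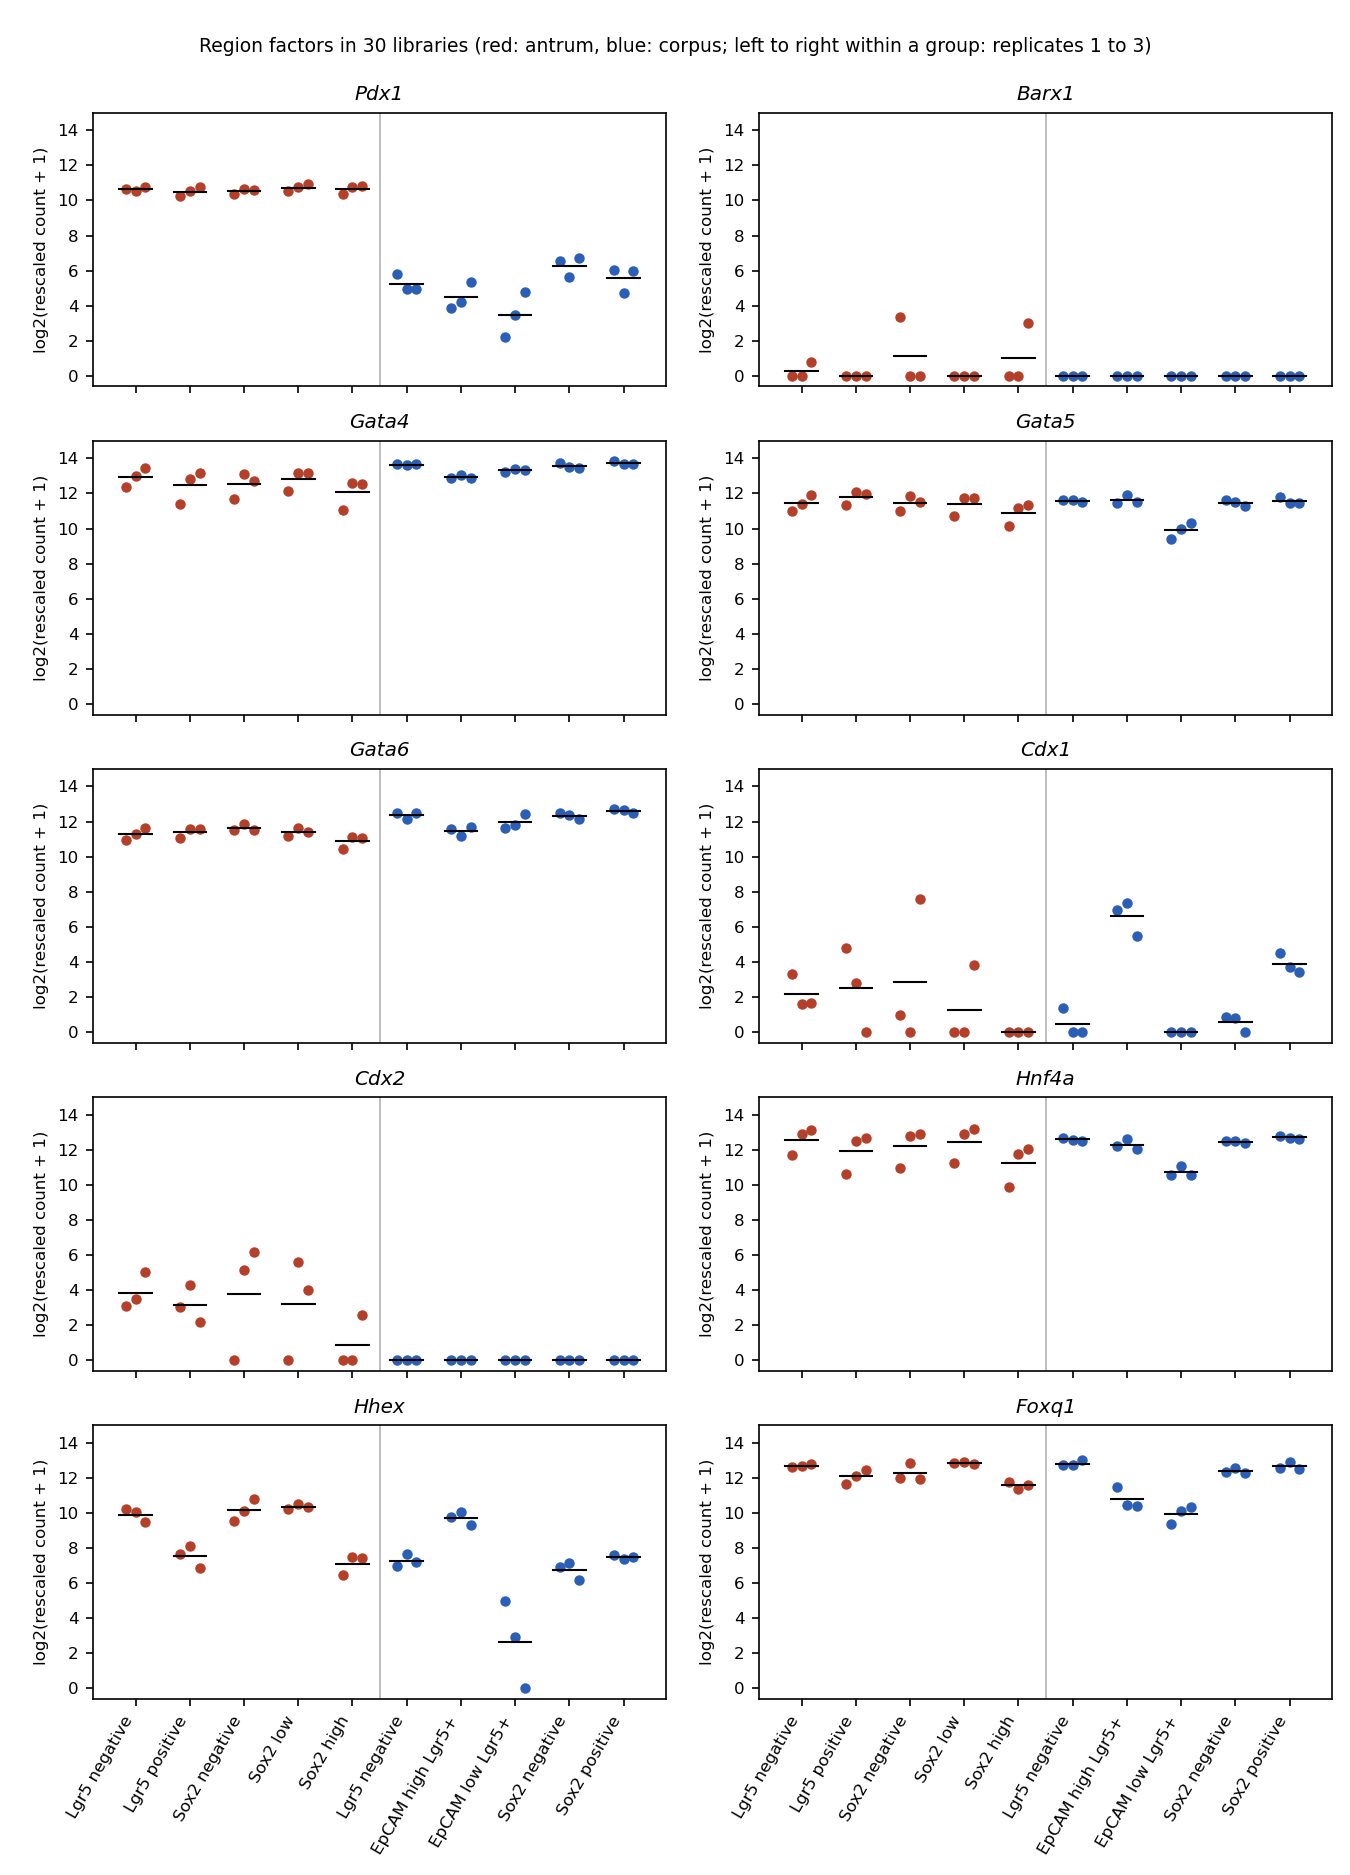
Levels of the 10 genes in every library, as log2(rescaled count + 1) on a shared axis, with 3 points (replicates 1 to 3, left to right) and a line at the mean for each of 5 antral groups (red) and 5 corpus groups (blue). Pdx1 sits in a band of 1196 to 1930 in the antrum and of 3.58 to 106 in the corpus, Cdx2 is at 0 in every corpus library, and Hhex changes with both the tissue and the gate.

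Cdx2, the intestinal homeobox factor, was near the detection limit and was found in the antrum. Its reads numbered 344 of 435125619 in the 15 antral libraries and 0 of 486632204 in the 15 corpus libraries. With a floor of 3 reads over the corpus group, the antral mean was at least 61.4-fold higher, a bound that covers counting error only. Within the antrum the rescaled counts were 7.42, 10.3 and 31.2 in Lgr5-negative cells, 7.08, 18.9 and 3.49 in Lgr5-positive cells and 0, 34.5 and 72.5 in Sox2-negative cells. They were 0, 46.7 and 15.3 in Sox2-low cells and 0, 0 and 5.05 in Sox2-high cells. The antral groups overlapped, and the sort day 1 libraries were at 0 in 3 of 5 groups. The tissue difference of the group means was 2.97 (SE 0.54, limma adjusted p = 7.9e-05), which depends on the added count of 1 and is no bound. A count of 10 in at least 3 libraries was needed for a test, and Cdx2 reached 10 in 7 libraries, all antral. Its p-values in this and the other tissue contrasts therefore add no support to its read counts. Markers of duodenum moved with it: their summed level was 17.1 to 2311 in the antrum and 0 to 109 in the corpus, with Cdx2 itself one of the 4. The defining enterocyte gene Sis was at 0 in antral Lgr5-positive and Lgr5-negative cells and not in the antral Sox2 gates, where it reached 88.2 in Sox2-negative, 16.0 in Sox2-low and 2.52 in Sox2-high libraries. The part of duodenal cells in the Cdx2 result was not tested.

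Cdx1, the other caudal factor, had a different pattern. Its rescaled counts were 123, 161 and 44.2 in corpus EpCAM-high Lgr5-positive cells and 21.9, 12.4 and 9.91 in corpus Sox2-positive cells. It was at 0 in all 3 EpCAM-low libraries and at most 1.61 in the corpus Lgr5-negative and Sox2-negative groups. In the antrum single libraries were high, with 188 in replicate 3 of Sox2-negative cells against 0.942 and 0 in the other replicates, and with 26.5, 6.04 and 0 in Lgr5-positive cells. The antral Sox2-high libraries were all at 0. The difference between the tissue means did not pass the test (−0.53, SE 0.60, limma adjusted p = 0.500).

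Barx1, whose known site is the stomach mesenchyme, was almost absent. It had 22 reads in the antrum, of which 10 were in replicate 1 of Sox2-negative cells, 11 in replicate 3 of Sox2-high cells and 1 in replicate 3 of Lgr5-negative cells, and it had 0 of 486632204 reads in the corpus. No library reached the filter of 10, so it entered no test. Markers of fibroblasts and smooth muscle were low in the same libraries, with summed levels of 161 to 378 in Sox2-high cells and 0.872 to 49.6 in the other antral groups, against 142177 to 357185 for the 5 epithelial markers in the antrum. In Sox2-high cells Col1a2 made up most of that sum (mean 255 of 272), and 1 of the 8 markers exceeded 3 reads in each library.

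Hhex differed between tissues and between gates. Its rescaled counts in the antrum were 1180, 1044 and 720 in Lgr5-negative cells, 739, 1120 and 1772 in Sox2-negative cells and 1201, 1451 and 1270 in Sox2-low cells. They were several times lower in antral Lgr5-positive cells (205, 282 and 117) and Sox2-high cells (85.7, 180 and 170). In the corpus EpCAM-high Lgr5-positive cells, at 875, 1078 and 641, lay above Lgr5-negative cells, at 124, 201 and 144, and EpCAM-low Lgr5-positive cells lay below them, at 30.4, 6.60 and 0 (17, 2 and 0 reads). Corpus Sox2-positive cells had 190, 167 and 179 and Sox2-negative cells 122, 142 and 72.8. In the order of means the 4 groups with the most Hhex were separated from the next, antral Lgr5-positive cells, without overlap. The EpCAM-low group was likewise below all others. The antral mean was higher by 2.24 (SE 0.31, limma adjusted p = 2.0e-06), and by 1.21 (adjusted p = 7.4e-06) when the EpCAM-low libraries were left out.

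The GATA factors did not move as one. Gata4, the most abundant member per transcript length, had rescaled counts of 12898, 12596 and 12916 in corpus Lgr5-negative cells, 13612, 11512 and 11258 in corpus Sox2-negative cells and 14611, 13059 and 13195 in corpus Sox2-positive cells. It had 9702, 10789 and 10209 in EpCAM-low cells and 7605, 8400 and 7563 in EpCAM-high cells. The antral libraries ranged from 2132 to 11039 (median of 15 libraries 6785). The antral day 1 libraries were at 2132 to 5284 and all other antral libraries at 6003 to 11039, so part of the spread follows the sort day. Gata4 was lower in the antrum by 0.88 (limma log2 fold change −0.88, SE 0.19, adjusted p = 4.4e-04), and by less without the 5 antral day 1 libraries (−0.47, adjusted p = 8.0e-06).

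Gata6 was lower in the antrum as well, by a similar amount and with less spread. Its rescaled counts were 1978, 2468 and 3225 in antral Lgr5-negative cells against 5734, 4455 and 5662 in the corpus counterpart, and 2360, 3195 and 2658 in antral Sox2-low cells against 6805, 6366 and 5685 in corpus Sox2-positive cells. Corpus EpCAM-high cells, at 3076, 2270 and 3240, overlapped the antral range of 1394 to 3659. The difference of the tissue means was −0.83 (SE 0.11, limma adjusted p = 8.3e-07), and −0.69 without the antral day 1 libraries. Gata5 was at 1112 to 4268 in the antrum and 672 to 3905 in the corpus, and the difference of the tissue means did not pass the test (0.16, SE 0.15, limma adjusted p = 0.382). Gata5os, an antisense gene overlapping Gata5, was at 19.5 to 184 in the antrum and 9.91 to 79.8 in the corpus. Reads of Gata5 and Gata5os cannot be told apart where they overlap. When library totals were used for scaling, which moved the median of all genes from 0.10 to 0.77, Gata4 came to −0.16 (adjusted p = 0.489) and Gata6 to −0.11 (adjusted p = 0.490), so their lower antral level is relative to the bulk of genes.

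Hnf4a, a general factor of gut epithelium, was at 945 to 9253 in the antrum and 1512 to 7136 in the corpus, and the difference of means did not pass the test (−0.07, SE 0.26, limma adjusted p = 0.846). Antral day 1 libraries were at 945 to 3371 and the other antral libraries at 3485 to 9253, with no overlap. Without the day 1 libraries Hnf4a was higher in the antrum by 0.52 (adjusted p = 9.9e-06) and Gata5 by 0.44 (adjusted p = 8.7e-04), an alternative added after the data were seen. Hnf4a has a longest transcript of 4362 bases, in the length range in which day 1 values were lowest (3500 to under 5000 bases). The longest Gata4 transcript, of 3400 bases, lies in the next shorter range, where antral day 1 medians were −0.42 to −0.87. Foxq1, with 4843 bases, lies in the same range as Hnf4a, and its antral day 1 libraries (3230 to 7288) overlapped the others (2653 to 7737). The part of the day 1 shift in the tissue differences of Gata4, Gata5 and Hnf4a was not tested beyond leaving these libraries out.

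**Figure D2:**
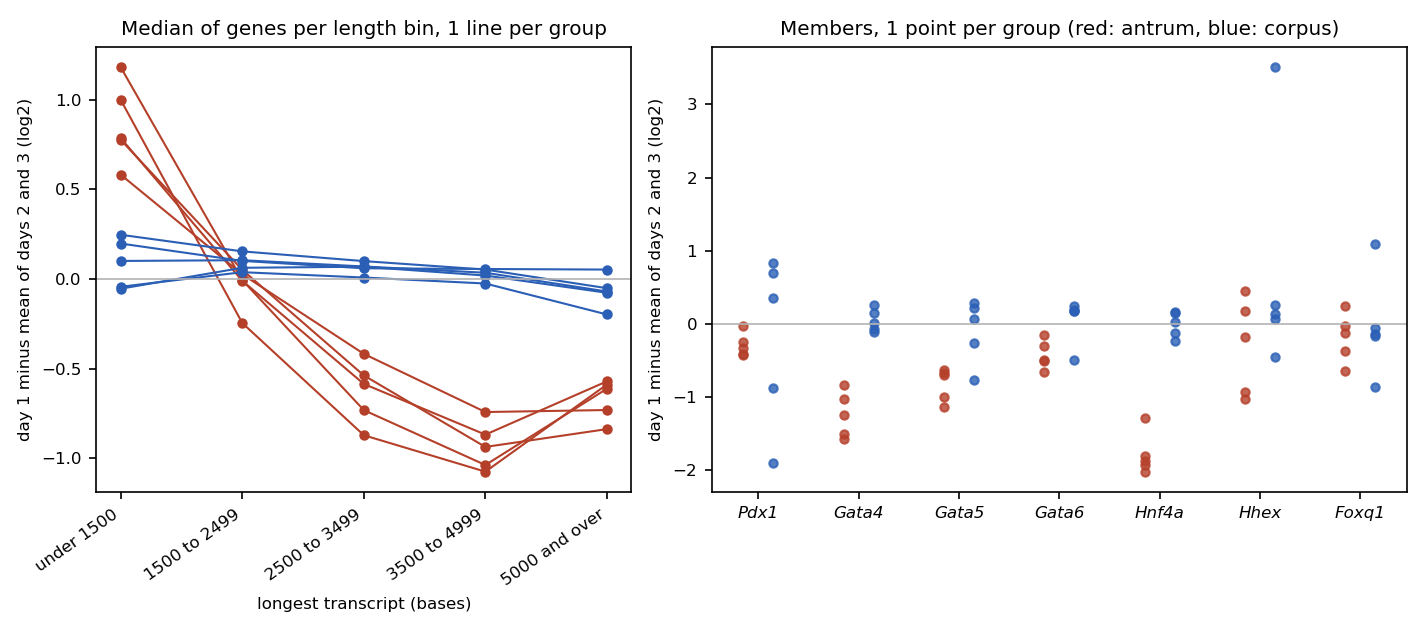
Left, the median difference between sort day 1 and the mean of days 2 and 3 (log2) for genes of rising transcript length, 1 line per group, over 10533 genes. Right, the same difference for 7 members, 1 point per group. Antral groups (red) fall from 0.58 to 1.18 for the shortest transcripts to −0.74 to −1.07 for those of 3500 to under 5000 bases. Corpus groups (blue) stay between −0.20 and 0.25. Pdx1, Gata4, Gata5, Gata6 and Hnf4a lie below 0 in all 5 antral groups.

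Foxq1 was abundant in both tissues. Its rescaled counts were 6196, 6465 and 7109 in antral Lgr5-negative cells against 6682, 6772 and 8239 in the corpus, and 7288, 7737 and 7189 in antral Sox2-low cells against 6053, 7743 and 5741 in corpus Sox2-positive cells. They were lowest in corpus EpCAM-low cells, at 667, 1126 and 1307, and in EpCAM-high cells, at 2901, 1401 and 1326. The tissue means differed by 0.57 (SE 0.13, limma adjusted p = 8.4e-04). That call ended without the EpCAM-low libraries (0.13, adjusted p = 0.459) and in Sox2-Tomato libraries alone, where the sign turned (−0.30, adjusted p = 0.169). A gene annotated as protein coding, A530084C06Rik, lies on the opposite strand within the same interval of chromosome 13 as Foxq1. It has no values of its own in these data, so reads of the pair cannot be told apart.

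Levels were compared between genes per kilobase of exon. Gata4 was at 1827 rescaled counts per kilobase in the antrum and 3110 in the corpus, Hnf4a at 1200 and 1154, and Foxq1 at 1098 and 911. Gata5 was at 870 and 803, Gata6 at 814 and 1472, Pdx1 at 733 and 19.2, and Hhex at 401 and 138. Cdx1 was at 9.47 and 14.3 per kilobase, and Cdx2 at 7.44 in the antrum. In the antrum Pdx1 was thus close to Gata5 and Gata6 per kilobase, and in the corpus it was nearer to Cdx1.

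Over the mean of 5 groups per tissue, 6 of the 9 members tested were called at an adjusted p under 0.05, 4 higher in the antrum (Pdx1, Cdx2, Hhex and Foxq1) and 2 lower (Gata4 and Gata6). Cdx2 passed the filter through antral libraries alone, so its call adds nothing to its read counts. Of all genes 42.0% were called in this contrast, 25.9% higher and 16.2% lower, so a call alone sets no member apart. All 6 calls were kept when any 1 of the 30 libraries was left out. Because cells of 1 day share a sort, an exact permutation test (two-sided) was run on the means of the 6 antral and 6 corpus sort days, for the 10 members and without adjustment. The days did not overlap for Pdx1, Gata6 and Hhex (exact p = 0.00216 each, the smallest value this design allows). The share of all genes without overlap between days was not counted, so this alone sets no member apart. The exact p was 0.00649 for Gata4, 0.0152 for Cdx2 and 0.175 for Foxq1. It was 0.182 for Barx1, 0.515 for Gata5, 0.563 for Cdx1 and 0.784 for Hnf4a. Within the Lgr5-DTR-GFP line alone Gata4 missed the threshold (−0.61, limma adjusted p = 0.0684) and Gata5 passed it (0.58, adjusted p = 0.0332), and within Sox2-Tomato alone Cdx2 missed it (2.62, adjusted p = 0.0715).

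**Figure D3:**
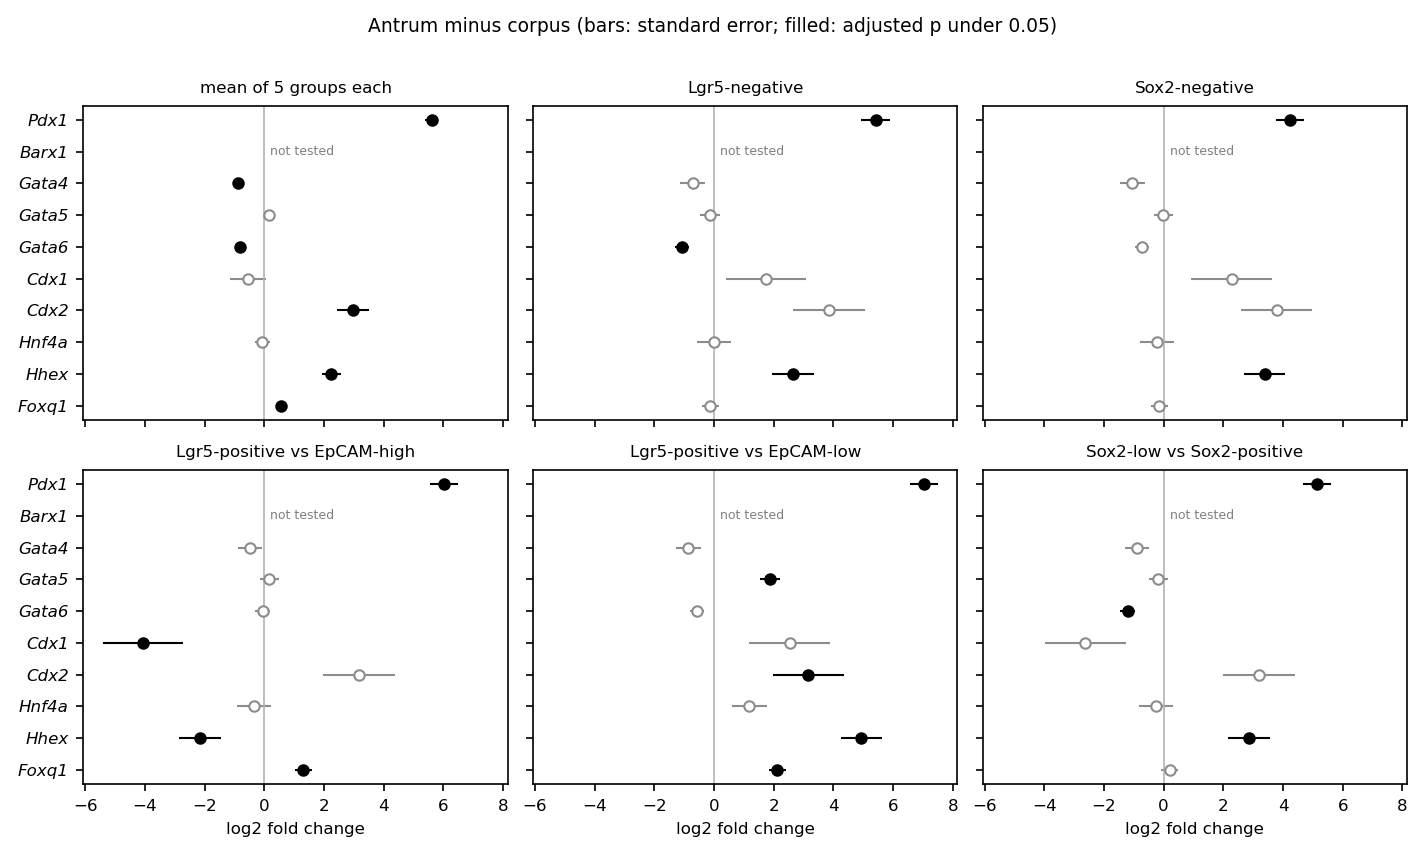
Log2 fold change, antrum minus corpus, of each member (rows) in 6 contrasts (panels), with bars of 1 standard error and filled points where the limma adjusted p was under 0.05. Pdx1 is to the right of 0 in every panel, between 4.24 and 7.03, and Hhex is to the right in all panels except antral Lgr5-positive against corpus EpCAM-high cells, where it is at −2.15.

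In the 5 pairs of gates set against each other, Pdx1 was called higher in the antrum each time, and Hhex was called in all 5 with its sign turned in 1. In Lgr5-negative cells, 3 members were called where 7.16% of genes were (3.36% higher, 3.8% lower): Pdx1 higher by 5.41 (limma adjusted p = 3.0e-08), Hhex higher by 2.64 (adjusted p = 0.0169) and Gata6 lower, at −1.07 (adjusted p = 0.0052). The Hhex call ended without replicate 1 or 2 of antral or replicate 1 or 3 of corpus Lgr5-negative cells (adjusted p = 0.0595 to 0.0757), and the Gata6 call without antral replicate 1 (adjusted p = 0.0510). Cdx2 at 3.86 was just outside (adjusted p = 0.0519, and 0.0448 with the sort day as a block). In Sox2-negative cells 2 members were called where 7.77% of genes were (4.06% higher, 3.71% lower), Pdx1 at 4.24 (adjusted p = 1.5e-06) and Hhex at 3.38 (adjusted p = 0.0019). Cdx2 at 3.78 again lay outside (adjusted p = 0.0545, and 0.0473 with the block), and it was called without antral Sox2-negative replicate 1 (5.68, adjusted p = 0.0010).

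In antral Sox2-low against corpus Sox2-positive cells, 3 members were called where 9.51% of genes were (5.13% higher, 4.37% lower). Pdx1 was higher by 5.14 and Hhex by 2.86 (limma adjusted p = 0.0073), and Gata6 was lower, at −1.21 (adjusted p = 0.0013). Cdx2 (3.20, adjusted p = 0.106) was called without antral Sox2-low replicate 1 (4.80, adjusted p = 0.0106). Antral Lgr5-positive cells were set against both corpus Lgr5-positive groups. Against EpCAM-high cells 4 members were called where 24.4% of genes were (13.8% higher, 10.6% lower), namely Pdx1 at 6.02 and Foxq1 at 1.31 (adjusted p = 0.0013) higher, and Cdx1 at −4.07 (adjusted p = 0.0291) and Hhex at −2.15 (adjusted p = 0.0236) lower. The Cdx1 call ended without replicate 2 or 3 of the antral or 1 or 2 of the corpus group (adjusted p = 0.0513 to 0.172) and with edgeR (0.164), and the Hhex call without antral replicate 3 or corpus replicate 1 or 2 (0.0559 to 0.0991). Cdx2 at 3.16 missed the threshold there (adjusted p = 0.0574, and 0.0492 with the sort day as a block). Against EpCAM-low cells 5 members were called where 30.0% of genes were (21.5% higher, 8.49% lower), all higher in the antrum. These were Pdx1 at 7.03, Hhex at 4.94, Foxq1 at 2.12, Gata5 at 1.88 and Cdx2 at 3.16 (adjusted p = 0.0491), and the Cdx2 call ended when any 1 of 5 of the 6 libraries was left out (adjusted p = 0.0787 to 0.172).

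Within the antrum, Hhex was called in both contrasts of Sox2-high cells with the other Sox2 gates. In normalized counts it was at 96.3, 179 and 167 in Sox2-high cells, at 1254, 1279 and 1088 in Sox2-low cells and at 775, 989 and 1634 in Sox2-negative cells. The Sox2-high libraries were below all the others. Sox2-high cells were lower than Sox2-low cells by 3.07 (limma log2 fold change −3.07, SE 0.35, adjusted p = 0.0022), a contrast in which 2 of 8 members and 7.9% of genes were called (6.14% higher, 1.76% lower). The authors' deposited table gives −3.05 (adjusted p = 0.00762) for Hhex in the same contrast. Foxq1 was the other member called, with 3829, 2639 and 3028 against 7607, 6820 and 6157 (−1.13, SE 0.28, limma adjusted p = 0.0405), and the authors' deposited table gives −1.14 with an adjusted p of 0.4085, so it is not called there. The Foxq1 call ended without any 1 of the Sox2-low libraries or without Sox2-high replicate 2 or 3 (adjusted p = 0.103 to 0.160). With the sort day as a block, Gata4 (−0.63, adjusted p = 0.0147) and Hnf4a (−1.06, adjusted p = 0.0012) were called lower as well, and the count of genes rose from 1190 to 4581.

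Against Sox2-negative cells, Sox2-high cells again had less Hhex (−2.91, SE 0.35, limma adjusted p = 0.0039), the 1 member of 8 called where 2.15% of genes were (1.43% higher, 0.724% lower). With the sort day as a block the count of genes called rose from 324 to 1463, and Gata6 (−0.62, adjusted p = 0.0344) and Hnf4a (−0.86, adjusted p = 0.0045) were called lower too. Other cell types moved with this gate. Summed markers of endocrine cells were at 1991960 to 2983340 in Sox2-high cells and 125306 to 270545 in the other Sox2 gates of the antrum, and summed tuft cell markers at 99.5 to 2289 against 4146 to 18974. Their part in the Hhex result was not tested. Between Sox2-low and Sox2-negative cells limma called no member (0 of 8) and no gene (0.0% of 15064), where 966 genes had an unadjusted p under 0.05, edgeR called 0 genes and DESeq2 228, none of them a member.

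The antral Lgr5 gate gave no call at all with limma (0 of 7 members, 0.0% of 14047 genes), where 1017 genes had an unadjusted p under 0.05, edgeR called 0 and DESeq2 382. Hhex had 235, 249 and 108 normalized counts in Lgr5-positive cells and 1201, 926 and 623 in Lgr5-negative cells, without overlap. Its log2 fold change was −2.25 (SE 0.43, limma adjusted p = 0.156). With the sort day as a block Hhex was called (adjusted p = 0.0090, among 446 genes), as it was with DESeq2 (−2.19, adjusted p = 0.000167). The authors' deposited table gives 2.22 (adjusted p = 0.313) for Hhex in this contrast, so it is not called there. That table gives −4.44 for Lgr5 itself, so its sign is turned. The log2 fold change was −0.07 (SE 0.25) for Pdx1, 0.20 (SE 0.26) for Gata6 and 0.43 (SE 0.29) for Gata5, none of them called. Chief and parietal cell markers summed to 2556190 to 6297060 rescaled counts in Lgr5-positive cells and 177989 to 407138 in Lgr5-negative cells, and endocrine markers to 14221 to 54171 against 77452 to 177818. Their part in the Hhex difference was not tested.

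**Figure D4:**
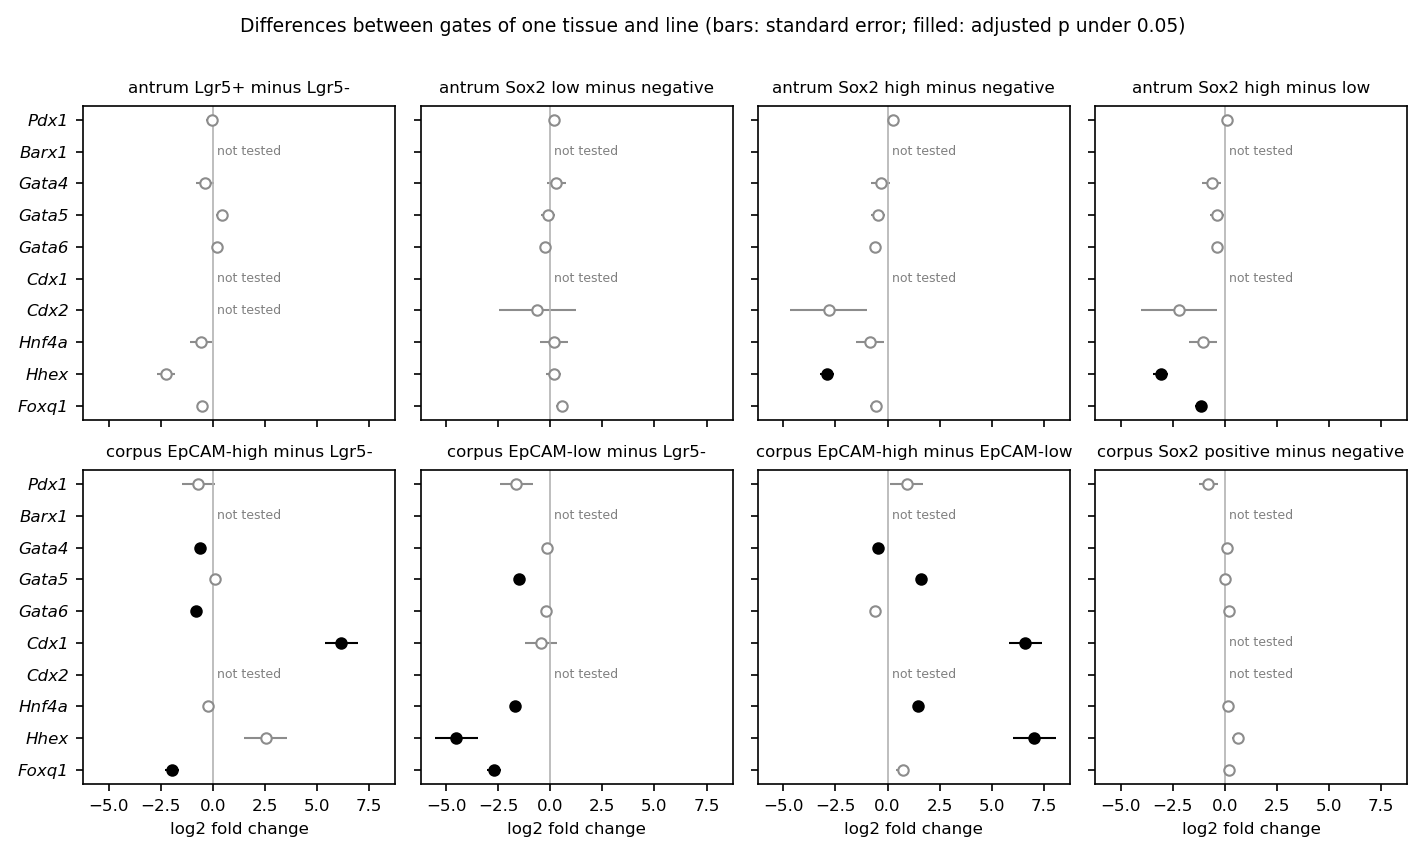
Log2 fold change of each member (rows) in the 8 comparisons between gates of 1 tissue and line (panels), with bars of 1 standard error and filled points where the limma adjusted p was under 0.05. Hhex lies left of 0 in both Sox2-high contrasts (−3.07 and −2.91) and right of it in EpCAM-high minus EpCAM-low cells (7.04), while Pdx1 has no filled point.

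In the corpus the Lgr5-positive cells with high EpCAM carried more Cdx1, Hhex, Gata5 and Hnf4a than those with low EpCAM. Cdx1 was at 124, 160 and 45.0 normalized counts against 0 in all 3 EpCAM-low libraries, at least 41.2-fold higher against a floor of 3 reads over the group. Hhex was at 882, 1073 and 651 against 33.1, 7.01 and 0 (7.04, SE 1.03, limma adjusted p = 0.00094). Gata5 was at 2808, 3887 and 2917 against 731, 1086 and 1387 (1.62, SE 0.23, adjusted p = 0.00086). Each of these genes had no overlap between the groups. Hnf4a was at 4759, 6168 and 4348 against 1671, 2298 and 1636 (1.45, SE 0.19, adjusted p = 0.00048). Gata4 was lower, at 7665, 8362 and 7684 against 10554, 11444 and 11049 (−0.48, SE 0.13, adjusted p = 0.0182). These are 5 of 8 members, 4 higher and 1 lower, where 31.8% of genes were called (17.5% higher, 14.3% lower). Cdx1 is among them, though it passed the filter through the EpCAM-high libraries alone, so its call adds no support to its counts. Gata6 missed the threshold (−0.60, adjusted p = 0.0780) and was called with the sort day as a block (adjusted p = 0.0315).

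Scaling decides the direction of the Gata4 and Gata6 differences between these groups. With library totals, where the median of all genes moved from 0.07 to 2.02, Gata4 was at 1.54 and Gata6 at 1.42. Chief and parietal cell markers summed to 48745200 to 110927000 rescaled counts in the EpCAM-low libraries and to 6376430 to 9656870 in the EpCAM-high ones. Tuft cell markers summed to 120705 to 230906 in EpCAM-high cells and to 920 to 6892 in EpCAM-low cells. The 5 immune markers summed to 1516 to 3968 in EpCAM-high cells, with Cd3e at 0, and to 40.4 to 195 in EpCAM-low cells. In EpCAM-high cells Ptprc made up most of that sum (mean 2713 of 2869), and 2 of the 5 markers exceeded 3 reads in each library. The part of these cell types in the differences of Cdx1, Hhex, Gata5 and Hnf4a was not tested.

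Against corpus Lgr5-negative cells, EpCAM-high cells had more Cdx1 (6.16, limma adjusted p = 0.0012) and less Foxq1 (−1.97, adjusted p = 0.0037), Gata4 (−0.64, adjusted p = 0.0074) and Gata6 (−0.83, adjusted p = 0.0341). These are 4 of 8 members, where 21.1% of genes were called (10.7% higher, 10.5% lower). Cdx1 passed the filter of this fit only through the EpCAM-high libraries, so its p-value adds no support to its counts. The Gata6 call ended without any 1 of the Lgr5-negative libraries or without EpCAM-high replicate 1 or 2 (adjusted p = 0.0557 to 0.120), and in both contrasts of EpCAM-high cells within the corpus Cdx1 fell below the filter and was not tested without any 1 of the EpCAM-high libraries. Hhex was at 882, 1073 and 651 against 118, 194 and 139 normalized counts, without overlap. Limma did not call it (2.52, SE 1.03, adjusted p = 0.113), and edgeR (adjusted p = 0.0134) and DESeq2 (adjusted p = 8.7e-06) did. EpCAM-low cells had less Foxq1 than Lgr5-negative cells (725, 1194 and 1415 against 6351, 6560 and 7989, −2.69, adjusted p = 0.00075) and less Hnf4a (−1.68, adjusted p = 0.00054), Gata5 (−1.51, adjusted p = 0.0019) and Hhex (−4.51, adjusted p = 0.0101). All 4 of 8 members called were lower, where 30.9% of genes were called (12.9% higher, 18.0% lower). With library totals the median of all genes was −2.11 and 7 members were called. The highest count of genes called in this contrast under any setting was 12104, with 14847 tested in the main fit. The 4 calls are thus differences relative to the bulk of genes. Markers of other cell types differed in both contrasts. In EpCAM-low cells 6 of 7 chief and parietal markers were higher, and 7 of 8 endocrine, 3 of 4 pit cell and 3 of 4 tuft cell markers were lower. In EpCAM-high cells 4 of 4 tuft cell markers were higher and 6 of 8 endocrine markers lower. Their part in the members' differences was not tested.

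The corpus Sox2 gate called none of the 7 members tested, where 9.73% of genes were called (1.7% higher, 8.02% lower). Hhex had an unadjusted p under 0.05 (0.64, SE 0.28, limma adjusted p = 0.241), and edgeR and DESeq2 called 0 members. Cdx1 was not tested because only 2 of its 6 libraries reached a normalized count of 10, where 3 were needed. Its Sox2-positive libraries (29, 12 and 12 reads) were all above its Sox2-negative ones (1, 1 and 0 reads), and without the filter it was called (3.22, adjusted p = 0.0104). Tuft cell markers summed to 20848 to 39547 in Sox2-positive cells against 7985 to 13693 in Sox2-negative cells, and their part was not tested.

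The change with Lgr5 was compared between the tissues, with both corpus Lgr5-positive groups averaged. Foxq1 was the 1 of 9 members called, where 3.0% of genes were (2.74% higher, 0.262% lower). The antral change minus the corpus change was 1.85 (SE 0.38, limma adjusted p = 0.0073). With the sort day as a block Gata5 (adjusted p = 0.0143) and Gata6 (adjusted p = 0.0397) were called too. For the change with Sox2 none of the 9 members was called, where 0.0757% of genes were (0.0582% higher, 0.0175% lower). Cdx1 had an unadjusted p of 0.017 there (adjusted p = 0.919), and edgeR and DESeq2 called 0 members.

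Among 27 tested genes of a list of other endoderm and gut epithelial patterning factors, 14 were higher and 5 lower in the antrum over the mean of 5 groups, with a median of 0.42 against 0.10 for all genes, of which 25.9% were higher and 16.2% lower. The largest changes among the named ones were those of Nkx6.3, a homeobox factor of the antrum (9.01, limma adjusted p = 6.7e-18), and of Onecut3 (7.82, adjusted p = 3.1e-17). In the other direction stood the Iroquois factors Irx5 (−7.71, adjusted p = 1.2e-18) and Irx3 (−5.73, adjusted p = 1.2e-13). Nkx6.3 was at 3290 to 15179 in the antrum and 0 to 92.6 in the corpus, and Irx5 at no more than 0.684 in the antrum and 85.1 to 482 in the corpus. Among 22 tested intestinal genes known as targets of Cdx2 or Hnf4a, 12 were higher and 8 lower, with a median of 1.39, against the same shares of all genes. The cell surface antigen Gpa33 (4.10) and the lectin Lgals4 (2.46) were higher, and the apolipoproteins Apoa1 (−4.93) and Apoa4 (−4.01) lower in the antrum. Of the list of mesenchymal patterning genes and Barx1-linked Wnt antagonists, 3 were tested, and Nr2f2 (−1.95) and Sfrp1 (−2.39) were lower. The Sfrp1 call ended with the sort day as a block (adjusted p = 0.0678). Of 39 Hox genes 4 were in the tables and none passed the filter.

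The lists were also counted in the comparisons between gates. Between EpCAM-high and EpCAM-low cells, where 17.5% of all genes were higher and 14.3% lower, 6 of 24 patterning factors were higher and 3 lower, among them Ehf (3.87), Klf4 (2.32), Sox9 (2.28) and Klf5 (1.83), and 8 of 18 intestinal genes were higher and 2 lower, among them the microvillus genes Vil1 (4.99) and Cdhr5 (4.17). EpCAM-low cells were lower than Lgr5-negative cells for 10 of 24 patterning factors and higher for none, where 18.0% of all genes were lower and 12.9% higher. In the antrum, Sox2-high cells differed from Sox2-low cells in Foxa2 (1.31) and Klf4 (−1.42) out of 24, against 7.9% of all genes. In the corpus Sox2 gate 3 of 24 were higher and 4 lower, against 1.7% and 8.02% of all genes, among them Sox2 itself (2.76), Ehf (1.13), Ptf1a (−3.74) and Prox1 (−1.18). In the difference of the Lgr5 change between tissues 4 of 27 were higher and none lower, against 2.74% and 0.262% of all genes, namely Sox9, Creb3l3, Nkx6.3 and Klf4.

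The genes most like each member were taken by Pearson correlation over the 10 group means of the log2 values, as a description with no test. For Pdx1 they were the mucin gene Muc4 (0.993), Plut (0.992), Nkx6.3 (0.991), Tulp2 (0.988) and Samd5 (0.986). For Cdx2 they began with the incretin hormone gene Gip (0.976), for Hhex with Tm6sf2 (0.970) and for Foxq1 with Zfp36l2 (0.991). For Gata4 the first was Emp1 (0.975), which was also among the 5 nearest to Gata6 (0.965), where Magi1 was first (0.983). The 10 means share the 2 tissues and, within a tissue and line, the sort days.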

How the data were processed

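RNA-seq was done on sorted mouse stomach cells in 30 libraries, with the Clontech SMARTer v4 low-input kit per the labels' protocols. Tools named in the submitters' processing notes are edgeR, DESeq2, HTSeq and STAR, with the build mm9. Their versions and roles and the use of strand were not stated. The values are a signal, normalized counts, deposited by the authors in a table per tissue after division of each library's counts by a size factor, the 2 tables scaled separately. The authors' deposited tables of comparisons give adjusted p-values beside log2 fold changes, and 1 also a ratio (fold change). The table on the antral Lgr5 gate has a turned sign for Lgr5 itself. The table on EpCAM goes against the counts for Epcam itself and is not used here. Unnamed rows (433, at most 0.482% of a library's reads) and rows named by dates (25, at most 0.106%) were left out. GENCODE M21 and RefSeq tables of GRCm38 supplied loci, lengths and promoters, and no expression value depends on that build.

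Within a library, values are whole multiples of 1 read, and reads were recovered (at least 99.995% of values whole within 0.01 read), 18672634 to 62344916 per library. The cDNA was amplified and carried no molecular identifiers, so the floor of 3 reads covers counting error only. For comparisons between tissues the reads of all libraries were scaled with TMM factors (edgeR 4.0.16) to 1 common size, the rescaled count. The main test was limma 3.58.1 (R 4.3.3; trend and robust) on log2(value + 1), which understates changes of low genes, for genes with at least 10 in at least 3 libraries, with Benjamini-Hochberg adjustment over all genes and a threshold of 0.05. Libraries of 1 line and tissue were fitted together, and all 30 for the tissue contrasts. edgeR's quasi-likelihood test and DESeq2 1.42.0 on recovered reads were alternatives, chosen together with other scalings, a pseudocount of 5, no filter, left-out libraries and the sort day as a block. The fit was tested on simulated data.

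The deposited sort sheet gives libraries of 1 line and tissue with the same number the same day, and its numbers match the labels in 30 of 30 libraries, so numbers pair the libraries. Correlations of their deviations from the group means were 0.462 to 0.557 in antrum Lgr5, 0.111 to 0.519 in antrum Sox2, −0.0427 to 0.151 in corpus Lgr5 and 0.165 to 0.354 in corpus Sox2 sorts. Whether days used separate animals is not stated, so p-values cover only the spread between sorts, which may be technical. Replicate libraries differed by more than read sampling gives (chi-square per degree of freedom at least 37.2 in 30 pairs).

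The members and gene lists were chosen with earlier results of these data known. Every member that passed the filter was tested in every comparison. The text names the called ones and gives values for only some of the others. Of each list at most 4 called genes with the smallest adjusted p are named per comparison, and the 5 genes most correlated with a member called between tissues form its nearest genes.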

Additional observations from a re-analysis of the deposited data

Results flagged for a closer look

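The change with Lgr5 was compared between antrum and corpus by the test of the difference itself in the fit of all 30 libraries, and which members passed depended on the corpus group used. For Foxq1 the antral change minus the corpus change was 1.85 (SE 0.38, limma adjusted p = 0.0073) with both corpus Lgr5-positive groups averaged, 1.44 (adjusted p = 0.0335) with EpCAM-high cells as the corpus group and 2.25 (adjusted p = 0.0011) with EpCAM-low cells. For Hhex the difference was −4.80 (SE 0.98, adjusted p = 0.0043) with EpCAM-high cells, where its level relative to Lgr5-negative cells was lower in the antrum and higher in the corpus. With EpCAM-low cells it had the opposite sign and did not pass (2.29, adjusted p = 0.166), nor did it with both groups averaged (−1.25, adjusted p = 0.654). For Gata5 the difference was 2.02 (SE 0.46, adjusted p = 0.0077) with EpCAM-low cells, and it did not pass with EpCAM-high cells (0.30, adjusted p = 0.848) or with both averaged (1.16, adjusted p = 0.174). Groups of 3 libraries are too small for the check on outlying samples.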

How the results depend on the processing

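Of the members' tests under other settings, 2146 were counted as the same, 58 gained a call, 46 lost one and 7 reversed. Changes of sign in values never called stayed among the 2146. Over the mean of 5 groups Cdx1 was at −0.53 in the main test, 0.88 with edgeR and 0.64 with DESeq2. Gata5 was at 0.16 in the main test, −0.17 without the EpCAM-low group and −0.28 in Sox2-Tomato libraries alone. The reversed values were those of Gata4 (1.27) and Gata6 (1.56) in antral Lgr5-positive minus EpCAM-low cells and of Gata4 (1.54) and Gata6 (1.42) in EpCAM-high minus EpCAM-low cells, all with library totals. Over the mean of 5 groups, Foxq1 reversed in Sox2-Tomato libraries alone (−0.30), and Hnf4a with library totals (0.65) and without the antral day 1 libraries (0.52). The cause was not tested.

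Counts of members called moved as follows. With the sort day as a replicate block they were 1 for the antral Lgr5 gate (main 0), 4 for Sox2-high minus Sox2-low (main 2), 3 for Sox2-high minus Sox2-negative (main 1) and 3 for the difference of the Lgr5 change (main 1). The block moved counts of all genes in these antral gates to 446, 4581 and 1463, and in the difference of the Lgr5 change to 1508 of 17178. Beside the calls given with the results, the block changed no other member's call. DESeq2 gave 1 for the antral Lgr5 gate, 5 for the Sox2-negative tissue contrast (main 2) and 3 for the difference of the Lgr5 change. It called 382 of 13975, 1772 of 16829 and 1078 of 16496 genes there. Library totals gave 8 for antral Lgr5-positive minus EpCAM-low cells (main 5), 8 for EpCAM-high minus EpCAM-low cells (main 5), 7 for EpCAM-low minus Lgr5-negative cells (main 4) and 2 for the difference of the Lgr5 change. In the same order, the highest counts of genes called under any setting were 13527, 11363, 12104 and 1508. The main fits tested 17178, 14847, 14847 and 17178 genes, so high counts of members under library totals set no member apart. That difference also gave 2 with either corpus Lgr5-positive group alone. The corpus Sox2 gate gave 1 (main 0) without the filter, with library totals, TMM factors or DESeq2 size factors, each time Cdx1. Without a filter Sox2-high minus Sox2-low gave 1. Without the antral day 1 libraries the Sox2-low against Sox2-positive contrast gave 5 (main 3) and the Sox2-negative contrast 4. With 1 library left out, members called ranged from 2 to 4 for Lgr5-positive against EpCAM-high cells, 4 to 7 against EpCAM-low cells, 1 to 2 for Sox2-high minus Sox2-low and 1 to 3 for the Lgr5-negative tissue contrast. For EpCAM-high minus Lgr5-negative cells the range was 2 to 3. In the same order, all genes called ranged over 3243 to 3982, 4123 to 5027, 239 to 1409, 786 to 911 and 1372 to 2721. Depth limits Barx1, Cdx1 and Cdx2, whose calls rest on few reads.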
